A study of Mus musculus with 22 samples.

Results

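The comparison described here is that of the whole mouse lung at embryonic day 14 (E14) with the lung at embryonic day 12 (E12), while the airways are branching. Every probe set other than the manufacturer's controls was compared, and it was kept where the higher of its 2 signals lay above the median signal of its chip, which left 6779 of 13044 probe sets and 3657 genes. Signals under the 25th percentile of a chip were raised to that floor, 72.3 on chip A and 47.3 on chip B. A gene was counted as changed where the signals differed at least 2-fold. The E16 pool then served to ask whether the direction held.

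The series followed normal lungs of Swiss Webster mice over 11 ages, of which the E14 and E12 pools are compared here and the E16 pool is set beside them. Each age was 1 RNA pool made from at least 3 lungs, and each pool was hybridised once to chip A and once to chip B of the Affymetrix Mu11K set, short-oligonucleotide arrays that read different sets of transcripts. The 2 pools compared thus fill 4 of the 22 arrays. Lungs of E12, E14 and E16 were already extracted as pools, those of later ages one by one. The labels name no engineered allele and no treatment. With 1 pool per age there is no replicate check, no p-value can be given, and the number of arrays limits the precision of every value.

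At these ages the lung is in its pseudoglandular phase, in which epithelial tubes bud and divide into a surrounding mesenchyme. Fibroblast growth factors from the mesenchyme draw the buds out, Sonic hedgehog, bone morphogenetic proteins and Wnt proteins pass between the layers, and retinoic acid is needed for the lung to bud at all. Smooth muscle, vessels, cartilage and the interstitial matrix form around the tubes over the same days, while the distal epithelium begins to express surfactant protein C.

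The deposited signals had been brought to a common level, with a trimmed mean between 498 and 500.2 on all 22 arrays. The bright end of the E12 array of chip B stood apart. Its maximum was 35736, against 22693 on the E14 array and between 11989.5 and 22077 on the 9 later arrays of that chip. The 6 probe sets for spiked bacterial transcripts on chip B were all lower at E14 than at E12, by a median log2 difference of -0.99, and on chip A 5 of the 6 were lower, by a median of -0.47. Among the 85 probe sets of chip B with a signal over 10000 at either age the median difference was -0.41, whereas the 25 such probe sets of chip A had a median of -0.03. Over all kept genes the median was -0.01, so a moderate fall of a very bright transcript on chip B cannot be told apart from this offset of the E12 array.

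The labelled tissue was checked against marker genes. Of 6 markers of lung epithelium on the chips, 5 lay above the chip median, among them Cdh1, the adhesion molecule of epithelia, with signals of 1204 at E14 and 839 at E12, and Sftpc, surfactant protein C, with 2515 at E14 and 1437 at E12. The exception was Nkx2-1, the transcription factor that defines the lung field, whose probe set read 66.6 at E14 and 51.4 at E12 and stayed under the median of chip B. All 4 measured markers of lung mesenchyme lay above the median, as did 3 of 5 for endothelium and 2 of 3 for mesothelium. None of 4 cartilage markers and none of 3 markers of oesophagus and stomach did, and of 4 thymus markers only Foxn1 did.

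Markers of tissues next to the lung moved between the pools. The summed signals of the erythroid markers were 45267 at E14 and 79890 at E12, with 5 of 5 genes above the median. That sum joins both chips. Its fall was carried by probe sets of chip B for Hbb-y, with 19421 at E14 and 35736 at E12, and Hba-a1, with 3099 at E14 and 20444 at E12. Both lie at E12 in the bright range where the E12 array of that chip stood apart. On chip A, Hbb-y read 11093 at E14 and 8761 at E12, and Hba-x 8521 at E14 and 11102 at E12. Liver markers summed to 1611 at E14 and 729.8 at E12, with 2 of 4 above the median. Those of skeletal muscle summed to 1675 at E14 and 1044 at E12, with 3 of 4 above the median, and those of heart muscle to 7470 at E14 and 5335 at E12, with 3 of 4 above it. Myl2, the myosin light chain of heart ventricle, was under the floor, at 36.6 at E14 and 48.3 at E12 on chip A. The heart sum was carried by Actc1, cardiac actin, with 3858 and 2606 at E14 against 3004 and 1217 at E12 on 2 probe sets of chip B, while Tnni3, cardiac troponin I, read 542 at E14 and 718 at E12. In the skeletal muscle sum Myod1, a muscle-determining factor, read 250.2 at E14 and 274.5 at E12. The part that these cells had in any difference below was not tested. In a whole-lung pool, fewer cells of a type and less RNA per cell cannot be told apart.

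Between the 2 pools, 62 genes (1.7% of the 3657 kept) were at least 2-fold higher at E14 and 79 (2.16%) at least 2-fold lower, 141 genes (3.86%) in all. By probe set the counts were 199 higher (2.94%) and 223 lower (3.29%), or 422 (6.23%), and 241 of the 422 carried no single gene symbol and are not named. Among the 2492 kept probe sets without one, 115 were higher (4.61%) and 126 lower (5.06%), or 9.67% in all.

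The chips differed in these shares. On chip A, 85 of 3368 kept probe sets (2.52%) were 2-fold apart, 32 higher (0.95%) and 53 lower (1.57%). On chip B there were 337 of 3411 (9.88%), 167 higher (4.9%) and 170 lower (4.98%). By gene, chip A gave 19 rises (0.731%) and 36 falls (1.39%), or 55 of 2598 genes (2.12%), and chip B 43 rises (4.06%) and 43 falls (4.06%), or 86 of 1059 (8.12%).

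**Figure D1:**
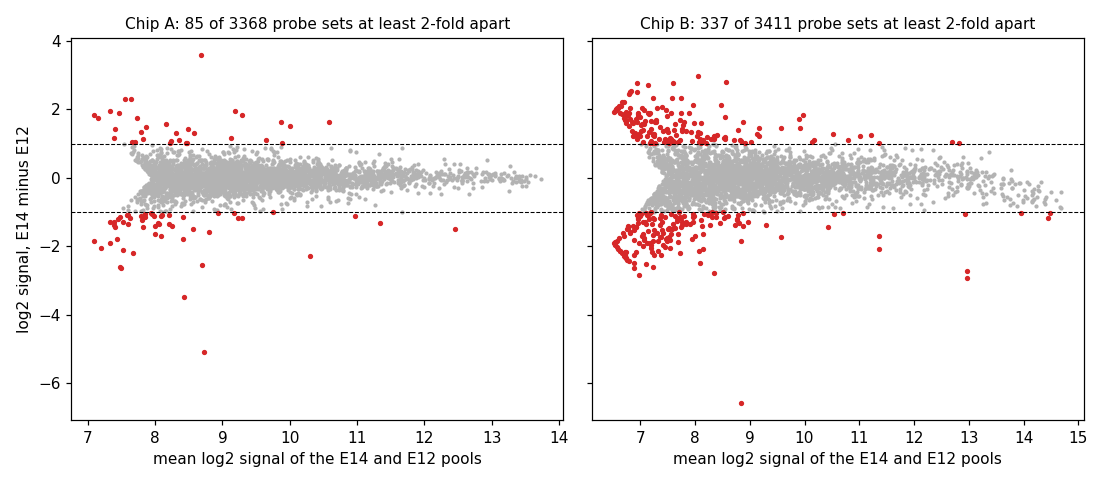
Each point is a kept probe set, with the mean log2 signal of the E14 and E12 pools on the horizontal axis and the log2 difference, E14 minus E12, on the vertical axis, for chip A on the left and chip B on the right. Red points lie at or beyond the dashed 2-fold lines, and they number 85 on chip A and 337 on chip B, most of them at the dim end. Of the 85 probe sets of chip B with a signal over 10000, 74 lie below 0.

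The share of probe sets past 2-fold depended on brightness. It was 12.3% where the higher signal was 1 to 2 times the chip median, 4.51% at 2 to 4 times, 1.96% at 4 to 8 times and 2.48% above 8 times. In the dimmest of these bands it reached 20.5% on chip B, against 4.8% on chip A. For that reason the genes below are given with their signals.

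Both chips carry a kept probe set for 186 genes, which is the one technical repeat of the ratio. The log2 differences on the 2 chips differed with an SD of 0.68, which puts the SD of a single log2 difference at 0.48. Across these genes, which are not independent replicates and share the pools but not the arrays, Pearson's r between the 2 chips was 0.08. In 14 of the 186 genes the difference was at least 2-fold on one chip, and in 0 of the 14 was it so on the other. The signs agreed in 7 of them. That SD of 0.48 takes the spread as equal on both chips. Over all kept probe sets the SD of the log2 difference was 0.40 on chip A and 0.65 on chip B, and 0.86 in the dimmest band of chip B, and 86 of the 141 changed genes were read on chip B. Lama5, a laminin chain of basement membrane, was picked as an example after its values were seen. Its probe set on chip B read 509.7 at E14 and 74.4 at E12, and another on chip A read 641 at E14 and 670.2 at E12.

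**Figure D2:**
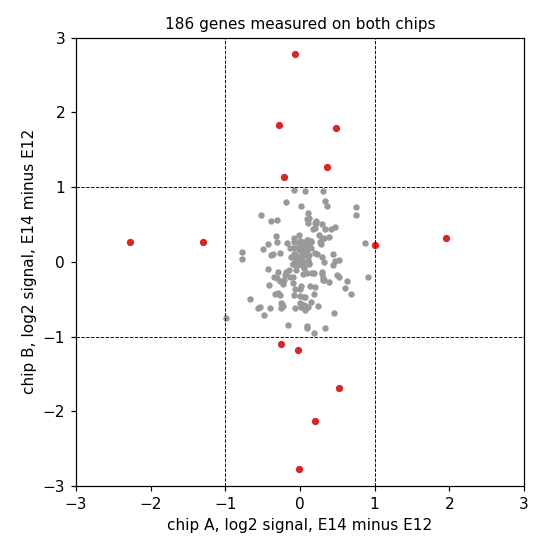
Each point is 1 of the 186 genes with a kept probe set on both chips, with the log2 difference (E14 minus E12) on chip A across and on chip B upward. The 14 red genes lie past the dashed 2-fold line on one chip, and no point lies past the line on both.

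Within the 141 genes, 11 had a further kept probe set, 14 in all. Of these 14, 11 had the same sign, 3 were themselves 2-fold apart in the same direction and 1, for Necap2, in the opposite one. Cd99, a surface glycoprotein of leukocytes and endothelium, was the clearest case of a repeat. Its probe sets on chip B read 3666 at E14 and 1530.1 at E12, and 1001 at E14 and 143.6 at E12, and at E16 both were higher still, at 5172 and 1233. Inhbc, an inhibin beta chain, rose by 2 dim probe sets, of which 1 was still above E12 at E16, and Mtm1, a lipid phosphatase, fell by 2 of 3, which are of a kind that reads several related sequences.

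Among the 62 rises, 9 had an E14 signal over 1000, a limit set after the values were seen. They were Prcc, Adh1, Cmtm6, Dcn, Aldh1a7, Cd99, Dennd5a, Mia and Col6a1, and in 6 of the 9 the E16 signal was again at least 2-fold above E12. Adh1, an alcohol dehydrogenase that also oxidises retinol, had signals of 877 at E12, 2697 at E14 and 8334 at E16, and at E14 was 3.08-fold above E12, or 1.62 on the log2 scale. The E16 level was the highest of the 3 ages and lay 3.25 above E12 on the log2 scale. Aldh1a7, an aldehyde dehydrogenase, had 946 at E12, 2289 at E14 and 3299.7 at E16, and rose 2.42-fold. Both enzymes read higher at each later age of the 3.

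Neither enzyme was on the list of retinoid pathway genes. Crabp1, which binds retinoic acid in the cytoplasm, rose 3.45-fold, with 692 at E14 and 200.5 at E12, but read 117 at E16, below E12. With the median of its probe sets the difference was 0.95, under 2-fold. Aldh1a2, the main retinoic acid-forming enzyme of the embryo and a mesothelial gene, was not past the limit, with 629 at E12, 338 at E14 and 91.6 at E16. Of 10 kept members of that list, Crabp1 alone rose and none fell, with a median of 0.04 beside -0.01 for all kept genes. Crabp1 was read on chip B, where 4.06% of kept genes rose.

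Matrix genes were among the brighter rises. Col6a1, a chain of collagen VI, which forms beaded filaments around cells, had signals of 1827 at E12, 3731 at E14 and 8179 at E16, a rise of 2.04-fold. Its partner chain Col6a2, named here for that reason and not by the rule, had 2708 at E12, 4982 at E14 and 10046 at E16, a log2 difference of 0.88 that fell short of 2-fold. The signals of both chains were higher again at E16. After quantile normalization Col6a1 stood at 0.87, under the limit.

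Loxl1, a lysyl oxidase that crosslinks elastin, rose 3.88-fold with signals of 82.1 at E12, 319 at E14 and 436 at E16, and was at 0.97 on the log2 scale, under the limit, with a 40th percentile floor. Dcn, the collagen-binding proteoglycan decorin, had 588 at E12, 1608 at E14 and 1125 at E16, and its E16 level was 0.94 above E12 on the log2 scale, just under 2-fold. Eln, elastin itself, was higher by 0.87, with 2409 at E12, 4408 at E14 and 7326 at E16, and Lox by 0.52, with 901 at E12, 1289.7 at E14 and 3561 at E16. Another Eln probe set, on chip B, gave 0.26, with 625 at E14 and 523 at E12. These 2 genes did not reach the limit by E14.

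Of 16 kept collagens and collagen assembly genes, 2 rose and none fell, with a median of 0.14. Over all kept genes 1.7% rose and 2.16% fell. The fibril-forming chains were close to level. Col1a1 differed by -0.05 and Col1a2 by 0.09, and Col3a1 read 8074 at E14 and 12027 at E12 on chip B, a difference of -0.57, where a second probe set on chip A gave 0.05. Of 21 kept elastic fibre and matricellular genes only Dcn rose, with a list median of 0.18, and of 18 basement membrane genes none passed the limit, with a median of 0.11. Nid1, the basement membrane linker nidogen, was the highest of these, with 498 at E12, 863 at E14 and 1654 at E16, and Itga3, an integrin chain, the lowest, with 901 at E14 and 1634 at E12 on chip B, whereas on chip A it read 1228 at E14 and 1150 at E12, a difference of 0.09.

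The promoters of 4 genes whose signal was higher at each later age are shown, to set the paired collagen VI genes beside an enzyme and a regulator. Col6a2 was not a rise by the 2-fold limit, and the 4 were chosen after their values were seen. Each line gives the 250 bases before the first listed start of transcription from RefSeq on build GRCm38.p6, which is not a build named by the arrays. Capitals mark matches, on either strand, to TATAA, to GGGCGG and to CCTCCC, which may overlap.
Col6a1: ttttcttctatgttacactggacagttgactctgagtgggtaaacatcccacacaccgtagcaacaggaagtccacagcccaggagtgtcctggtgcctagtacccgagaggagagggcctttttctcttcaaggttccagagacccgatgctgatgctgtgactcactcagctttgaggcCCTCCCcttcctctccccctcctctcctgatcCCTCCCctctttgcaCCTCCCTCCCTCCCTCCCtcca
Col6a2: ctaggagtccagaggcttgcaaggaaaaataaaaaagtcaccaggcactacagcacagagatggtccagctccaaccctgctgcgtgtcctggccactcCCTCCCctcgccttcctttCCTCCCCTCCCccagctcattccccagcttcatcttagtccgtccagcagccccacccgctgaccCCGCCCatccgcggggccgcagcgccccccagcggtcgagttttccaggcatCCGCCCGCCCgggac
Adh1: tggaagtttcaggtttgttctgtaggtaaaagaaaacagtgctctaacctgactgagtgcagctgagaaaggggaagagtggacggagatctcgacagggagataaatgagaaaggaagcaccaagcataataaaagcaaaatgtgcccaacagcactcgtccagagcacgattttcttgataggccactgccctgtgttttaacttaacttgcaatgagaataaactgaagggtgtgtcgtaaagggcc
Meox2: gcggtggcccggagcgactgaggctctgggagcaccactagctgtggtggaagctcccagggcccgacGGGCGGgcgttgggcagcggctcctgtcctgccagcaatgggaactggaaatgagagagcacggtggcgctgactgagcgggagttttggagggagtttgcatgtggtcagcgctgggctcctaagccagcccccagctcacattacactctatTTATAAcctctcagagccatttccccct

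These stretches lie at chr10:76726045-76726294, - strand, for Col6a1, at chr10:76623405-76623654, - strand, for Col6a2, at chr3:138277335-138277584, + strand, for Adh1, and at chr12:37108290-37108539, + strand, for Meox2. The 2 collagen VI genes lie close together on chromosome 10 and are read from the same strand. Their promoters share runs of CCTCCC, with 6 matches before Col6a1 and 3 before Col6a2, and only that of Col6a2 holds GGGCGG, 3 times. Over the promoters of 27025 genes, 37.1% hold CCTCCC, 32.9% hold GGGCGG and 23.5% hold TATAA. The Adh1 stretch holds none of the 3, and that of Meox2 holds GGGCGG once and TATAA on both strands at 1 place close to the start. A match is a description of the letters only.

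Meox2, a homeobox factor of mesoderm, rose 2.34-fold, with signals of 76.8 at E12, 179.8 at E14 and 343 at E16, and was at 0.71 on the log2 scale, under the limit, with a 40th percentile floor. It was the single member that changed among 17 kept mesenchymal transcription factors, whose median was -0.06. Meox2 was read on chip B, where 8.12% of kept genes changed. Meox1, a relative of Meox2, differed by 0.66, and Tcf21, a factor of lung mesenchyme, by 0.55, with 844 at E12, 1238 at E14 and 2624 at E16. Nfix, a nuclear factor I protein, named after its values were seen, had 309.6 at E12, 659 at E14 and 846 at E16.

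Other rises that lasted to E16 were of modest signal. Crip1, a small LIM-domain protein, had 109 at E12, 296 at E14 and 809 at E16, and Apoc1, an apolipoprotein, 64.5 at E12, 238 at E14 and 469 at E16. Smpdl3a, an enzyme related to acid sphingomyelinase, had 56.7 at E12, 197 at E14 and 414 at E16, so that all 3 genes were at least 2-fold higher at E14 and higher again at E16. Pros1, the anticoagulant protein S, had 219 at E12, 594 at E14 and 669 at E16. Crip1 and Pros1 were chosen after their values were seen.

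**Figure D3:**
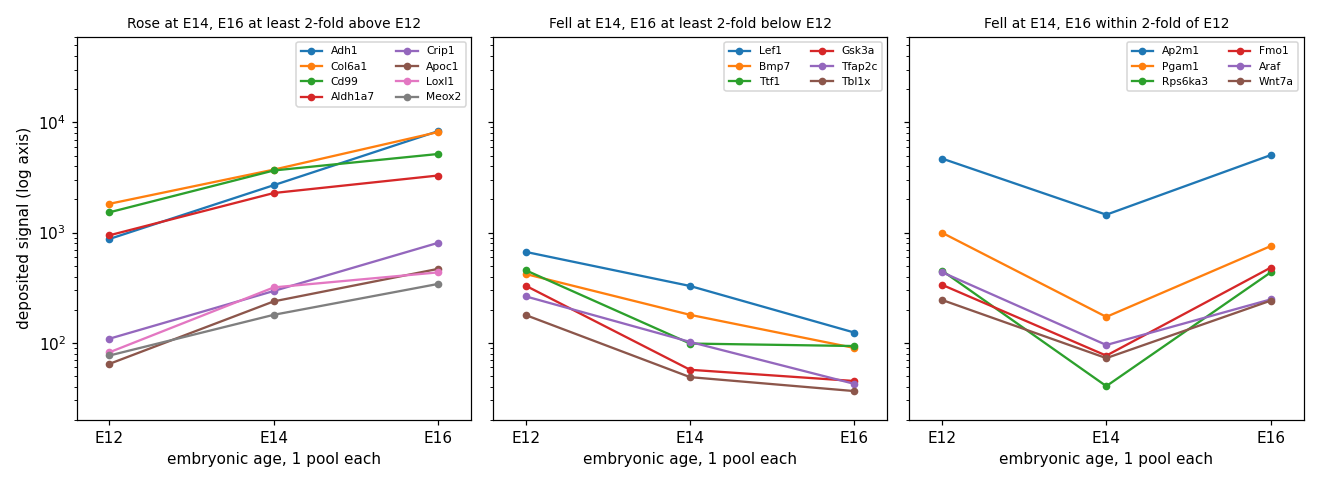
Deposited signals on a log axis at E12, E14 and E16, 1 pool each, for 8 genes that rose and stayed at least 2-fold above E12 (left), 6 that fell and stayed at least 2-fold below it (middle) and 6 that fell and returned to within 2-fold of it (right). Adh1 and Col6a1 reach 8334 and 8179 at E16, while Pgam1, Rps6ka3, Fmo1 and Wnt7a dip at E14 alone among the ages shown. The genes were picked for display after their values were seen.

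Fst, follistatin, which binds and holds back activins, headed the rises with the floor used here. Its signals were 51.7 at E12, 296 at E14 and 173 at E16, 5.72-fold higher at E14 than at E12, where it lay close to the floor of 47.3 on chip B. With a 10th percentile floor Baat stood higher, at 2.81 against 2.52 for Fst on the log2 scale, and with a 40th percentile floor Fst was at 1.43, below Prcc at 1.83 and Crabp1 at 1.79. Bmp7, a ligand of the same superfamily, fell 2.35-fold, with 421 at E12, 179.6 at E14 and 89.9 at E16. Fst and Bmp7 were the only 2 changed members of 21 in the BMP and TGF-beta pathway, whose median was -0.02. Both were read on chip B, where 4.06% of kept genes rose and 4.06% fell. Bmp4, made at the bud tips, read 425 at E14 and 390.4 at E12, Nog, the BMP antagonist noggin, 226 at E14 and 312 at E12, and the BMP targets Id1, Id2 and Id3 differed by 0.47, 0.01 and 0.04.

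Most of the 15 largest rises were dim at E12. Prkcb, a protein kinase C, stood at the chip's floor at E12 and was at least 4.01-fold higher at E14, with 135 at E16. Gnrh1, the gonadotropin-releasing hormone, had 54.7 at E12, 209 at E14 and 184 at E16, and Elavl1, an RNA-binding protein that stabilises messages, 91.7 at E12, 341 at E14 and 198 at E16. For these 3 genes, and for Loxl1, Apoc1, Smpdl3a, Fst, Rhbdl3 and Insig2, an endoplasmic reticulum regulator of sterol synthesis, E16 was again at least 2-fold above E12. With a 40th percentile floor 8 of the 15 came under 2-fold at E14, with log2 differences of 0.78 for Prkcb, 0.92 for Gnrh1, 0.86 for Insig2, 0.84 for Smpdl3a, 0.65 for Rhbdl3, 0.81 for Npn2 and 0.997 for Zbtb16, beside Loxl1.

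In the other 6 of the 15, E16 was not 2-fold above E12. Baat, which conjugates bile acids in liver, was at least 5.66-fold higher at E14 with a signal of 267.8, and read 28.6 at E16. Mllt1, a subunit of transcription elongation complexes, had 84.7 at E12, 415 at E14 and 163 at E16, and Zbtb16, the zinc finger factor PLZF, 66.6 at E12, 219.8 at E14 and 121 at E16. Npn2 and Crabp1 were also past 2-fold at E14 but not at E16. Both read higher again later, Npn2 with 268 at E18 and Crabp1 with a postnatal median of 1000. Prcc, a spliceosome-associated protein, had 532 at E12, 1888 at E14 and 984 at E16 on chip B, whereas its probe set on chip A differed by -0.29, so its direction rests on chip B.

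The rises, which took in 1.7% of all kept genes, also included muscle and plasma protein genes. Of 18 kept genes of heart and skeletal muscle, 3 rose and none fell, with a median of 0.15. They were Tnnc1, slow and cardiac troponin C, with 242 at E12, 605 at E14 and 288 at E16, Chrna1, an acetylcholine receptor chain of skeletal muscle, with 97.2 at E12, 233 at E14 and 305 at E16, and Acta1, skeletal actin, with 375 at E12, 840.3 at E14 and 1256 at E16. Of 12 kept plasma protein genes of liver and yolk sac, 2 rose, Apoc1 and Afp, and 9 lay above 0, with a median of 0.49. Afp, alpha-fetoprotein, had 247 at E12, 567 at E14 and 231 at E16 on chip B, and its probe set on chip A, under that chip's median and so not kept, read 161 at E14 and 58.1 at E12. Acta1 and Afp are among the markers summed above, so those sums are not separate from these rises. Of the other liver and muscle markers, Alb, albumin, read 581 at E14 and 329 at E12, and Myog, the muscle factor myogenin, 407 at E14 and 258 at E12.

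Among falls with a signal above the floor at both ages, that of Hba-a1, an alpha-globin of red cells, was the largest, with 3099 at E14 and 20444 at E12 by a probe set that reads related sequences. It read 0.0566 at E16, under the floor, and 518 at E18. Apc, Traf6 and Rps6ka3, described further on, were at the floor at E14, so their folds are lower bounds. With a 10th percentile floor they stood at -3.28, -4.04 and -3.48 on the log2 scale, beyond Hba-a1 at -2.72. A second Hba-a1 probe set read 339 at E14 and 373 at E12, a difference of -0.14. At E16 that second probe set read 305. The 2 probe sets do not give the same picture of Hba-a1. Hbb-b2, the other kept gene of the adult globin list, stayed bright. It read 13126 at E12, 9658 at E14, 15027 at E16 and 14634 at E18 on chip B. Hbb-y, the embryonic beta-globin, differed in sign between the chips. On chip A it read 11093 at E14 and 8761 at E12, a difference of 0.34, and on chip B 19421 at E14 and 35736 at E12, a difference of -0.88. At E16 it had dropped to 1400.4 on chip A and 2287 on chip B.

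Hba-x, the embryonic alpha-globin, had signals of 11102 at E12, 8521 at E14 and 1212 at E16. Hba-x and Hbb-y were thus lower at E16 than at E14, and neither was 2-fold below E12 at E14. Hbb-bh0, a further embryonic beta-like globin named after its values were seen, fell 2.23-fold, with 499 at E12, 223 at E14 and 37.6 at E16. Klf1, the erythroid factor that switches on adult beta-globin, fell 2.16-fold, with 374 at E12, 173 at E14 and 102 at E16. Of 12 other erythroid genes kept, Klf1 alone fell, and Alas2 and Slc4a1 differed by -0.24 and -0.60 on chip B, and Slc4a1 by -0.23 on chip A. The erythroid list of 12 had a median of -0.05, and 2.16% of all kept genes fell.

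Wnt pathway genes gave 3 falls and no rise among 14 kept members, with a median of -0.16. Over all kept genes 2.16% fell and 1.7% rose. The 3 falls were read on chip B, where 4.06% of kept genes fell. Lef1, a transcription factor through which beta-catenin acts, fell 2.04-fold, with 669 at E12, 328 at E14 and 124 at E16. With equal array medians it stood at -0.95, under the limit. Apc, which holds beta-catenin down, was at the floor at E14, at least 5.45-fold lower than at E12, with 258 at E12, 26.5 at E14 and 27.4 at E16. Wnt7a, a ligand, fell 3.37-fold at E14 only, with 245 at E12, 72.7 at E14 and 241 at E16.

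The remaining Wnt members stayed within 2-fold. Ctnnb1, beta-catenin itself, differed by 0.48, with 1003 at E12, 1398 at E14 and 1449.6 at E16. Wnt7b, a ligand of lung epithelium, read 326 at E14 and 373 at E12, and the secreted antagonists Sfrp1 and Sfrp2 differed by -0.22 and -0.04. Gsk3a and Tbl1x, partners of the same pathway that were not on the list, also fell. Gsk3a, a kinase that marks beta-catenin for destruction, had 329.9 at E12, 57 at E14 and 45.1 at E16, a fall of 5.79-fold, and Tbl1x, a corepressor subunit chosen after its values were seen, had 179 at E12, 48.9 at E14 and 36.5 at E16.

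The FGF, hedgehog and Notch lists held no gene past the limit. Of 5 kept FGF pathway genes none was 2-fold apart, and Fgfr2, the receptor for FGF10 in the epithelium, read 685 at E12, 758 at E14 and 1161 at E16. Fgfr1 differed by -0.70 and Fgfr4 by -0.64. Fgf6 and Fgf4, FGF ligands that were not on that list, are named after their values were seen. Fgf6 rose 3.25-fold on chip B, with 87.1 at E12, 283 at E14 and 155 at E16. Fgf4 read 174 at E12, 289 at E14 and 507 at E16, a log2 difference of 0.74 between E14 and E12. Among 7 hedgehog genes Shh, the epithelial ligand, read 169 at E12, 293 at E14 and 448 at E16, and Gli2, its mesenchymal effector, 341 at E12, 223 at E14 and 142 at E16, so the ligand was higher and the effector lower at E14, each by less than 2-fold. Of 7 Notch genes, Notch3, a receptor of mural cells, was lowest, with 1546 at E14 and 2500.0 at E12, and Hes1, a target, highest, with 509.6 at E14 and 367 at E12. Of 20 growth factors and receptor kinases only Egf rose, with 82.6 at E12, 182 at E14 and 80.7 at E16. With a 40th percentile floor it was at 0.72, under the limit. Egf was read on chip B, where 4.06% of kept genes rose.

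Hox genes had the lowest median of the lists with at least 5 kept members, -0.36 over 14 genes, with 5 above 0 and none 2-fold apart. Under quantile normalization the median was -0.33, and with equal array medians -0.28. Hoxb3 read 649 at E12, 342 at E14 and 215 at E16, Hoxb7 545 at E12, 305 at E14 and 375 at E16 and Hoxb6 2233 at E12, 1574 at E14 and 1013 at E16. Hoxa5, which the lung needs for normal branching and maturation, was level, with 832 at E14 and 852 at E12. The posterior members Hoxd12 and Hoxa13 lay on opposite sides of 0. Hoxb13, a posterior gene that was not on the list, is named after its values were seen. It read 465 at E12, 236 at E14 and 99.4 at E16, a difference of -0.98 between E14 and E12.

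Lung epithelial genes lay mostly above 0, in 14 of 17, with a median of 0.32 and none past 2-fold, where 1782 of all 3657 kept genes lay above 0. Sftpc had signals of 1437 at E12, 2515 at E14 and 10931 at E16, and Foxj1, the master factor of ciliated cells, 148 at E12, 284 at E14 and 327 at E16. Krt19, a keratin of simple epithelium, had 236 at E12, 398 at E14 and 1278 at E16, and Krt18, another, 381 at E12, 588 at E14 and 1125 at E16. At E16, 6 of the 17 were at least 2-fold higher than at E14, Sftpc and Krt19 among them, as were 102 of the 3657 kept genes. Scgb1a1, the club cell secretory protein, differed between chips, at 1150.4 at E14 and 296 at E12 on chip A, and 2251 at E14 and 1798 at E12 on chip B. Of 11 epithelial transcription factors none passed the limit. Foxa2 differed by 0.23 and Sox2, a factor of proximal airways, by 0.43.

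Vascular and smooth muscle lists held no gene past the limit. Among 11 endothelial genes the median was 0.13, with Emcn, endomucin, highest, with 188 at E12, 291 at E14 and 543 at E16, and all 11 were higher at E16 than at E14, as were 1704 of the 3657 kept genes. Kdr, the main VEGF receptor, was level, with 794 at E14 and 824 at E12. Among 12 genes of smooth muscle and pericytes the median was 0.11, and Acta2, smooth muscle actin, read 6096 at E12, 8062 at E14 and 11456 at E16. Csrp1, a LIM protein of smooth muscle, was highest, with 1069 at E14 and 583 at E12.

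Cell growth genes differed little between the pools. Of 67 kept cell cycle genes none was 2-fold apart, with a median of 0.02 and a range from -0.76 for Tfdp1 to 0.50 for Kif4. Mki67, a protein of cycling cells, read 4910.3 at E14 and 4560.4 at E12, and Cdk1 read 5198 at E14 and 4792 at E12. The 36 ribosomal protein genes had a median of -0.07, or 0.02 under quantile normalization, and the lowest, Rpl37a and Rps12, were bright genes of chip B. Chromatin and splicing genes (47) and imprinted or IGF genes (18) held no change past 2-fold either. Hmga2, a chromatin protein of early embryos, was the lowest of the first, with 1680.4 at E12, 906 at E14 and 204 at E16, and Igfbp7 the highest of the second, with 179.6 at E12, 346 at E14 and 1445 at E16.

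**Figure D4:**
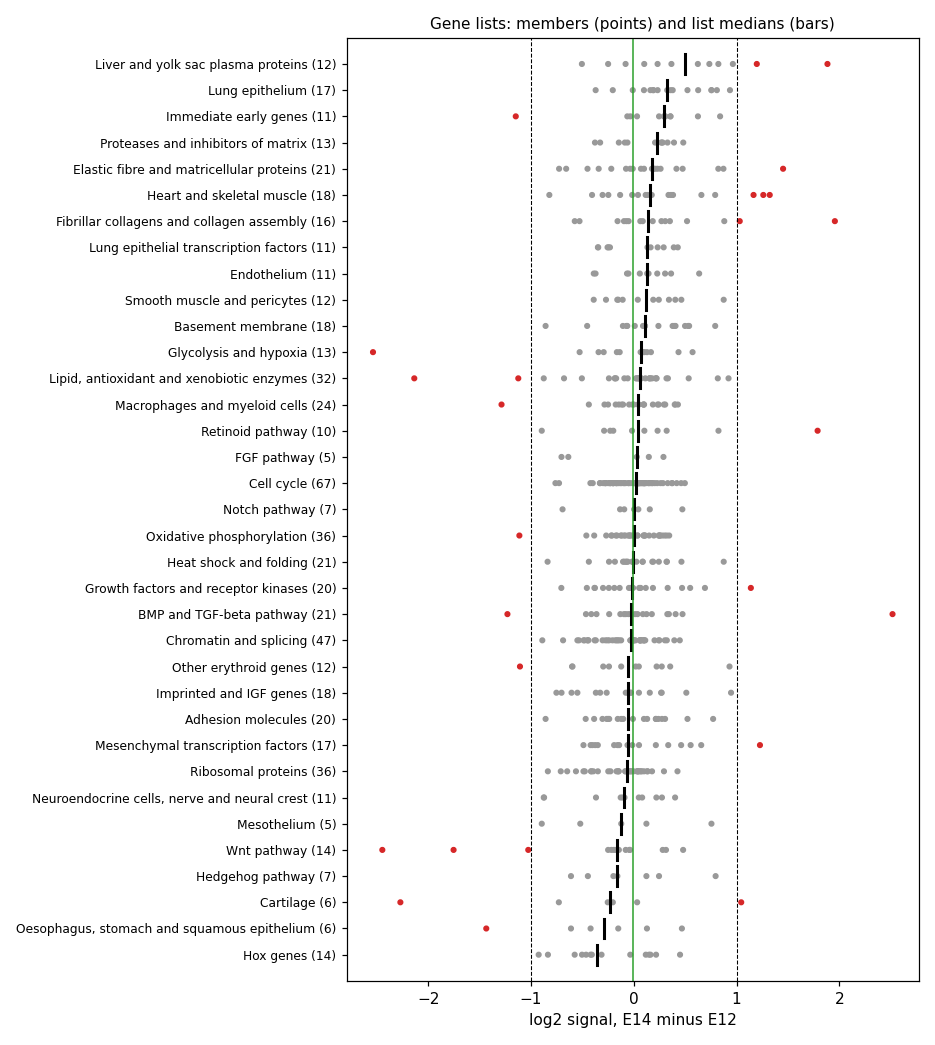
Each point is a kept gene of a list, placed by its log2 difference, E14 minus E12, and each black bar is the median of its list, with the number of kept genes in brackets. Lists with at least 5 kept genes are shown, red points are at least 2-fold apart, and the green line is the median of all 3657 kept genes, -0.01. List medians run from -0.36 for Hox genes to 0.49 for plasma proteins of liver and yolk sac.

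Of the 15 largest falls, 7 were seen at E14 but not at E16. Pgam1, a glycolytic mutase, had 999 at E12, 172 at E14 and 755 at E16, and Rps6ka3, a kinase downstream of ERK, 453 at E12, 40.5 at E14 and 436 at E16. Traf6, an adaptor of innate immune receptors, had 444 at E12, 27 at E14 and 324 at E16, and Fmo1, a flavin monooxygenase, 337 at E12, 76.6 at E14 and 481 at E16. The E16 signals of these 4 genes, and of Araf, Acsf3 and Dtna, were within 2-fold of E12. Among E12, E14 and E16 each low value thus rests on the single E14 array. The postnatal median was 73.8 for Acsf3 and 336 for Pgam1, in these alone of the 7 more than 2-fold below E12. Pgam1 was the one member that fell among 13 genes of glycolysis and hypoxia, beside 2.16% of all kept genes. That list had a median of 0.07, and Ldha and Pkm differed by -0.17 and -0.34. Ap2m1, a clathrin adaptor chain, was chosen after its values were seen: on chip B it read 1455 at E14 and 4704 at E12, and on chip A 1898 at E14 and 1320.2 at E12.

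The other 8, Hba-a1, Gsk3a and Apc among them, were still at least 2-fold below E12 at E16. Each high value of these 8 rests on the single E12 array of its chip. All but Cyp27b1 were read on chip B, whose E12 array stood apart at its bright end. Sox5, a factor of cartilage and neural cells, had 259 at E12, 53.7 at E14 and 94.3 at E16, and Ttf1, the termination factor of RNA polymerase I, 456 at E12, 98.6 at E14 and 93.6 at E16. Ttf1 is not the gene of thyroid transcription factor, which is Nkx2-1. Prkd1, protein kinase D, had 224 at E12, 50.1 at E14 and 70.1 at E16, Mcpt1, a mast cell protease, 377 at E12, 91.4 at E14 and 87.2 at E16, and Cyp27b1, the enzyme that activates vitamin D, 297 at E12, 72.1 at E14 and 95.7 at E16. The signals of these 5 genes at E12 lay between 224 and 455.6, in the dim range.

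Further falls were members of other lists, where 2.16% of all kept genes fell. Lcn2, lipocalin, was the one fall among 24 macrophage and myeloid genes, with 159.7 at E14 and 389.8 at E12, Tff1, a gastric trefoil peptide, among 6 genes of oesophagus, stomach and squamous epithelium, with 130.3 at E14 and 353 at E12, and Uqcrb, a complex III subunit, among 36 of oxidative phosphorylation, with 150.5 at E14 and 326 at E12. Foxn1, a thymus and skin factor and the only kept gene of its list, read 263 at E12, 118 at E14 and 217 at E16. Zfp36, an RNA-decay protein and the one fall among 11 immediate early genes, read 508 at E12, 229 at E14 and 532 at E16. Scd1, a fatty acid desaturase, fell, with 185 at E14 and 403 at E12. It and Fmo1 were the 2 falls among 32 lipid, antioxidant and xenobiotic enzymes. In the cartilage list of 6, Sox5 fell and Mia rose. Mia, a secreted cartilage protein, had 785 at E12, 1619.8 at E14 and 2362 at E16, and its difference was 0.95 after quantile normalization. No gene was 2-fold apart in the lists of nerve and neural crest (11), mesothelium (5), lymphocytes (4), matrix proteases (13), heat shock (21) or adhesion (20).

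At E16, 55 of the 62 rises (88.7%) and 72 of the 79 falls (91.1%) lay on the same side of E12 as at E14. Both differences share the E12 arrays, so these shares are a description and not a repeat. At the 2-fold limit 34 rises (54.8%) and 35 falls (44.3%) were kept. On chip A 10 of 36 falls were kept, and on chip B 25 of 43, where both differences are taken against the E12 array with the brighter maximum. Of the rises, 10 of 19 on chip A and 24 of 43 on chip B were kept. E16 lay beyond E14 in 24 of the rises and 21 of the falls.

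**Figure D5:**
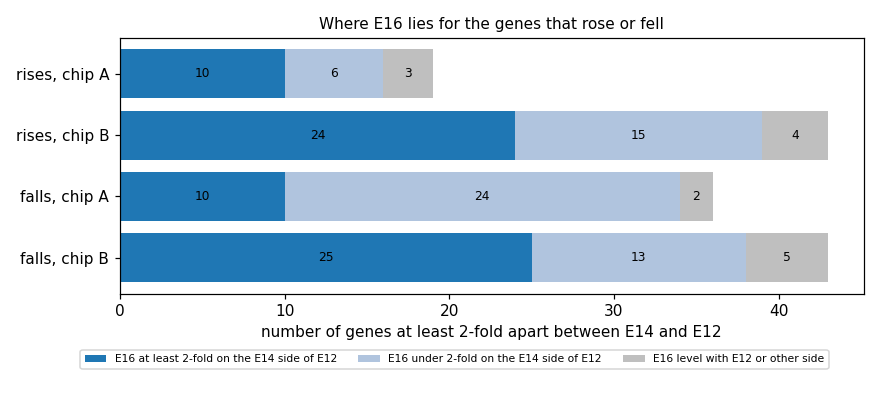
Bars count the 62 genes that rose and the 79 that fell at E14, split by chip, with the part in dark blue still at least 2-fold on that side of E12 at E16, in light blue on that side by less than 2-fold, and in grey level with E12 or on the other side. Dark blue holds 10 of 19 and 24 of 43 rises and 10 of 36 and 25 of 43 falls on chips A and B.

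Over all 11 ages, E12 was the lowest in 37 of the 62 rising genes (59.7%), against 15.1% of all kept genes. E14 was the lowest age in 33 of the 79 falling genes (41.8%), against 10.8% of kept genes. E14 was the highest age in 12 of the rising genes (19.4%), against 14.5% of kept genes, and E12 the highest in 34 of the falling genes (43%), against 21.3%. These figures follow in part from the choice of genes by these same arrays. The postnatal arrays did not enter the signals compared, but the floor and the chip median were taken over all 11 arrays of a chip. In 41 rising genes (66.1%) the median of the 7 postnatal ages lay above E16, where 46.5% of all kept genes did so. By chip it was 12 of 19 rises on chip A (63.2%, beside 42.9% of its kept genes). On chip B it was 29 of 43 (67.4%, beside 55.1%). In 30 falling genes (38%) the postnatal median lay below E16, where 53.4% of kept genes did so. For falls the chips gave 18 of 36 on chip A (50%, beside 57%) and 12 of 43 on chip B (27.9%, beside 44.5%). These are counts with no test.

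Some genes lay close to the limit. Lsm4 at 2.01-fold, Ctse, Chpf and Inhbc lay just inside, and Mep1a, Zbtb48, Smim14 and Hoxb13 just outside, the last of these at 1.97-fold lower. Of the 141 genes, 133 were also past 2-fold after quantile normalization. The 8 lost were Aplp1, Chpf, Col6a1, Ctse, Eef1a1, Mia, Mxd3 and Uri1, named because they lost the call. Eef1a1, a translation elongation factor and the brightest of the falls, read 14794 at E14 and 33403 at E12 on chip B, but 9066 at E14 and 9265 at E12 on chip A.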

How the data were processed

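Lung RNA of 11 ages was measured on Affymetrix Mu11K arrays, 1 pool and 1 array per chip and age, so 22 arrays. The deposited values are linear probe set intensity signals that the authors had made comparable between arrays, with a trimmed mean near 500 on each, as the values show. The step by which probe cells became a probe set value was not given in the sources used here, and the scanner setting files were not used. Ages were taken from the labels.

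Each chip was treated on its own scale. A floor was put at the chip's 25th percentile over its 11 arrays, 72.3 for chip A and 47.3 for chip B, lower signals were raised to it, and probe sets were kept where the higher of E14 and E12 lay above the chip median (250.3 and 176.7). A fold against a floored signal is a lower bound. The 55 control probe sets of each chip, and 1 probe set per chip with missing values, were left out. Probe sets were named from the platform annotation, which gives 1 gene symbol to 5534 probe sets of chip A and 1985 of chip B, several to 197 and 25, and none to 792 and 4511. Symbols were updated through a RefSeq gene table of assembly GRCm38.p6. The promoter stretches shown above were taken from RefSeq on the same build. Where a gene had several kept probe sets, the one with the highest mean stood for it.

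A log2 ratio, E14 minus E12, was taken, with no test. Alternatives were other floors, filters, scalings, fold limits and probe set choices. A gene was named by rule if it was among the 15 largest rises or falls, was 2-fold apart in a list (at most 5, or the 2 largest differences where none was), or was 2-fold apart by several probe sets. Other genes are named for a known role in a list, or are marked as chosen after their values were seen. The members and gene lists were chosen with earlier results of these data known. The counting was tested on simulated data. Those data held changes larger than 2-fold, placed in bright probe sets, and less spread than either chip showed here. The test thus checks the counting itself and does not give the share of false calls among these genes. Python 3.11.15, pandas 2.3.3, numpy 2.4.6 and matplotlib 3.10.9 were used.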

Additional observations from a re-analysis of the deposited data

How the results depend on the processing

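The counts beside which the alternatives stand are 199 probe sets higher and 223 lower, 62 genes higher and 79 lower, 34 rises and 35 falls still past the limit at E16, and 13 list entries higher and 15 lower. With no filter on low signals they were 396 and 446 probe sets, 116 and 156 genes, and 54 and 64 at E16. With both ages above the chip median they were 47 and 46 probe sets, 17 and 15 genes, and 11 and 7 at E16, and with the higher signal above the 75th percentile 39 and 44, 15 and 15, and 10 and 4. At 3-fold they were 85 and 94, 19 and 27, and 7 and 11, and at 1.5-fold 512 and 627, 176 and 265, and 116 and 140. Without the probe set kinds that can read several sequences (names ending in _f_at, _r_at, _i_at and _s_at) they were 35 and 55, 14 and 25, and 7 and 7. A floor at the 40th percentile, which raises the low signals themselves, left 46 and 58 genes, with 104 of the 141 shared, and 22 and 24 at E16. It brought 13 of 91 named genes under 2-fold, and those 91 include genes that were under 2-fold from the start. Among the 13 were Loxl1 (0.97), Meox2 (0.71), Egf (0.72), Inhbc (0.99), Cyp27b1 (-0.87) and Dtna (-0.73). Chip A alone, chosen after seeing the data because the E12 array of chip B stood apart, gave 32 and 53 probe sets, 21 and 38 genes, 11 and 10 at E16, and 5 and 5 list entries. The other alternatives above change how many probe sets are compared, or the limit itself. Under a floor at the 10th percentile, quantile normalization, equal array medians and the median of a gene's probe sets every count stayed within 1.5 times, and 141, 133, 135 and 135 of the 141 genes were shared. On chip A alone Prcc reversed, at -0.29. With no filter Cyp27b1 was -0.36, because another probe set then stands for it. No paired analysis was possible because each age is 1 pool and the labels carry no replicate numbers, and leaving out a replicate cannot be done for the same reason. Low signal limits the values: 12.3% of the probe sets at 1 to 2 times the chip median were 2-fold apart, and the median of the brightest probe sets of chip B was 0 under quantile normalization, against -0.41 as deposited. This group of bright probe sets was chosen after seeing the data.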

Other observations

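A step-by-step reading gives genes that moved the same way at 2 steps in succession, by at least 1.5-fold between E12 and E14 and again between E14 and E16. This limit and the genes below were chosen after the values were seen. Of 3657 kept genes, 34 were higher at both steps and 34 lower at both, while 41 were higher and then lower and 77 lower and then higher. Both steps share the E14 arrays.

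Among the 34 genes higher at both steps, Tspan8, a tetraspanin, had signals of 189.7 at E12, 290.0 at E14 and 1692 at E16, and Igfbp7, a vascular matrix protein, 179.6 at E12, 346 at E14 and 1445 at E16. Postn, the matricellular protein periostin, had 228 at E12, 403 at E14 and 1407 at E16, and Vegfd, a lymphatic growth factor, 363 at E12, 661 at E14 and 1290.4 at E16. Anxa1, an annexin of epithelia, had 222 at E12, 368 at E14 and 1415 at E16, and Vcam1, an adhesion molecule of mesenchyme and vessels, 502 at E12, 857 at E14 and 2235 at E16. Mt1, a metal-binding protein, had 313 at E12, 593 at E14 and 1714 at E16.

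Among the 34 genes lower at both steps, Rspo2, a Wnt agonist that lung branching needs, had 372 at E12, 226 at E14 and 114 at E16, and Vcan, the large proteoglycan versican, 1347 at E12, 853 at E14 and 441 at E16, although its other kept probe set differed by 0.03 between E14 and E12. Epha7, an ephrin receptor, had 582 at E12, 357 at E14 and 226 at E16, and Ago2, the slicer of microRNA silencing, 1305 at E12, 868 at E14 and 388 at E16. Hsd11b2, which inactivates glucocorticoid, had 981 at E12, 581 at E14 and 237 at E16, and Polr2a, the large subunit of RNA polymerase II, 2289 at E12, 1523 at E14 and 738 at E16. Each of these 6 was within 2-fold between E14 and E12, and at E16 lay at least 2-fold below E12.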
